A study of Mus musculus with 20 samples.

Results

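The transcripts of 10 genes of the metalloproteinase system were followed in *Pkd2* mutant and control kidneys: the tissue inhibitors of metalloproteinases *Timp1*, *Timp2* and *Timp3*, the matrix metalloproteinases *Mmp2*, *Mmp7*, *Mmp12* and *Mmp14*, and the related proteases *Adamts1*, *Adamts2* and *Adam12*. They were taken by name from a table of read counts for 24411 genes, in which all 10 were found. *Timp1* was chosen by its measured rise in the mutants, so its mutant and control levels are given as a description, with no test, while the other 9 genes were tested. Kidneys of 20 mice had been collected at P125 and their whole-kidney RNA sequenced, 1 library per mouse, with 5 controls and 5 mutants of each sex from 3 litters (A, B and C). All 20 mice were C57BL/6 mice that carried floxed *Pkd2* (Pkd2fl/fl) and received doxycycline at 50 mg/kg from P27 to P29. The mutants also carried Pax8rtTA, a doxycycline-dependent activator made in cells that express *Pax8*, and TetOCre, a Cre recombinase that this activator switches on, whereas the controls were Cre-negative. According to the study, the *Pax8* promoter directs the activator to the proximal and distal tubules and the collecting ducts. Whether other cells of the kidney keep the gene was not tested here. Mice are called here by group and by a number that has no further meaning.

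Metalloproteinases of the MMP family are zinc-dependent enzymes that cut collagens, elastin, laminins and other proteins of the extracellular matrix and the cell surface, and most are made as inactive precursors. TIMPs are small secreted proteins that block the active site of these enzymes: TIMP1 is strongly induced in injured and fibrotic kidneys, TIMP2 also takes part with MMP14 at the cell surface in the activation of proMMP2, and TIMP3 stays bound to the matrix and inhibits ADAM and ADAMTS proteases as well. ADAMTS proteases are secreted relatives that cut proteoglycans and procollagens, and ADAM proteases are mostly membrane-bound sheddases. In polycystic kidney disease, cysts enlarge beside a matrix that is thickened and remodelled.

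Library totals ran from 11307741 to 19324073 counts. The library of female mutant 4 stood apart from the other 19: it had the lowest total, 14850 genes with a count against 16776 to 17724 in the others, and 76 genes with exactly 1 count against 708 or more elsewhere. Results that rest on it are given with and without it. *Pkd2* had 110 to 133 CPM (counts of a gene relative to the library total, with totals scaled by the TMM method) in male mutants against 250 to 332 in male controls, and 93.4 to 181 CPM in female mutants against 193 to 306 in female controls, so that every mutant was below every control of its sex. Kidney weight as a percentage of body weight (KBW) was 1.68 ± 0.338 in male mutants, 0.692 ± 0.117 in male controls, 1.18 ± 0.261 in female mutants and 0.615 ± 0.0448 in female controls (mean ± SD, n = 5 each). Female mutant 4 had the highest *Pkd2* level of all mutants, 181 CPM, and the lowest KBW of all mutants, 0.836. Markers of the nephron were abundant in every library. The summed level of 8 proximal tubule markers was 8676 CPM in the lowest mouse, and that of 5 markers of the thick ascending limb and distal convoluted tubule was 4345 CPM in the lowest mouse.

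The 10 genes lie on 8 chromosomes of the mouse genome (GRCm38, the same assembly as mm10). *Timp1* is at chrX:20870166-20874735 on the plus strand and overlaps *Syn1* on the other strand without sharing an exon. *Timp3*, at chr10:86300372-86349506, shares 1733 bases of exon with *Syn3* on the opposite strand, and how strand was used in counting is not given in the sources used here. *Syn3* had 170 to 732 counts in a library where *Timp3* had 26299 to 62933. *Mmp7* (chr9:7692090-7699585) and *Mmp12* (chr9:7344381-7369499) share 123 and 157 bases of exon with genes on the other strand, *AV064505* and *Mmp1b*, that had 0 counts in all 20 libraries.

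Promoter sequences were available from RefSeq (GRCm38.p6) for 8 of the 10 genes, and not for *Mmp2* and *Adam12*. Those of 4 genes are printed, 5′ to 3′ on the gene's own strand and ending before the annotated gene start: *Timp1*, the gene with the widest difference in level, *Mmp7* and *Mmp14*, which tracked it most closely among the mutants, and *Timp3*, which did not pass an adjusted p of 0.01 between mutants and controls. Capitals mark AP-1 sites and TATA boxes.
Timp1, chrX:20869916-20870165, plus strand: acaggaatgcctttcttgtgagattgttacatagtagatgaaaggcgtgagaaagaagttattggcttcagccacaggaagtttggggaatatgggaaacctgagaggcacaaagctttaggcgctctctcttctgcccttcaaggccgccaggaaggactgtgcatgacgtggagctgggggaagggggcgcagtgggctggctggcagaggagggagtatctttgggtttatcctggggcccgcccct
Mmp7, chr9:7691840-7692089, plus strand: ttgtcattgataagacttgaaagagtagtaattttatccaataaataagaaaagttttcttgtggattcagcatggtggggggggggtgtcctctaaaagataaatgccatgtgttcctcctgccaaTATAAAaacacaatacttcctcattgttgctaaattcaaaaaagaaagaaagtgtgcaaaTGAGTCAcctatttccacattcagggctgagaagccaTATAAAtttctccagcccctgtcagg
Mmp14, chr14:54431348-54431597, plus strand: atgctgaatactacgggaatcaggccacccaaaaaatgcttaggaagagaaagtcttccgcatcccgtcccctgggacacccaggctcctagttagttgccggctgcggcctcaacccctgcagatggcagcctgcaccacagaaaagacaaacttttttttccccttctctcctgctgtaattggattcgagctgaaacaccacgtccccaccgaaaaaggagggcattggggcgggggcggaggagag
Timp3, chr10:86300162-86300371, plus strand: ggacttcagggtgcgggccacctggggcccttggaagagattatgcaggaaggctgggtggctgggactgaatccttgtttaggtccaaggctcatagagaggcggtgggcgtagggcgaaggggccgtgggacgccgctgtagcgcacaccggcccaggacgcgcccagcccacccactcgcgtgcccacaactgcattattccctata
The AP-1 motif was searched as TGANTCA and the TATA box as TATAAA, the latter on the gene's strand only, in the 250 bases before each RefSeq start, bases left out of the printed stretch included. *Mmp7* had 1 AP-1 match, 63 bases before its start, and 2 TATA matches, 123 and 26 bases before it. *Adamts1* had 1 TATA match, 32 bases before its start, and the other 6 promoters held neither motif. Over 32851 promoter windows of the same length, 6.75% held the AP-1 motif and 7.59% the TATA motif. The letters TTCNNNGAA, the STAT motif, occurred in 7.02% of all windows, and GGGANNNNCC, an NF-kB motif, in 17.6%, both searched on both strands. Neither occurred in any of the 8 promoters. CpG content also differed, with 0 CpG pairs in the stretch printed for *Mmp7*, 6 in that of *Timp1*, 10 in that of *Mmp14* and 13 in that of *Timp3*.

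*Timp1* was nearly silent in control kidneys and present in every mutant kidney. The 5 male controls had 0.440, 0.128, 0.375, 0.325 and 0.129 CPM, and the 5 male mutants 20.9, 3.84, 9.24, 7.26 and 2.67 CPM. The 5 female controls had 0.132, 0.164, 0.177, 0.417 and 0.454 CPM, and the 5 female mutants 24.7, 15.3, 19.7, 2.31 and 2.99 CPM. The groups did not overlap in either sex: the lowest male mutant was 6.07 times the highest male control, and the lowest female mutant, number 4, was 5.09 times the highest female control. In raw reads, the controls had 2 to 7 counts of *Timp1* and the mutants 27 to 492, so the control level rests on very few reads. The ratio of the means was 31.4 in males and 48.3 in females. The fitted difference over both sexes was 5.28 on the log2 scale, and it was positive in each of the 6 combinations of sex and litter, from 2.43 in the females of litter C to 6.58 in those of litter A.

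Among the mutants, *Timp1* varied far more than among the controls in absolute terms. The highest male mutant had 7.80 times the level of the lowest, and the highest female mutant 10.7 times. Litter C contributed 1 mutant of each sex, and these were the lowest of the male mutants and the second lowest of the female mutants. With 1 mouse per sex, a litter effect and a mouse effect cannot be told apart there.

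Per kilobase of exon, which allows genes to be compared, *Timp3* was the most abundant of the 10 transcripts and *Mmp7* the least in both genotypes. In controls the order of the mean levels, in CPM per kilobase over 10 mice, was *Timp3* (303 ± 38.5), *Timp2* (17.2 ± 3.80), *Adamts1* (11.0 ± 1.89), *Mmp14* (2.69 ± 0.655), *Mmp2* (1.31 ± 0.478), *Adamts2* (0.522 ± 0.138), *Adam12* (0.375 ± 0.132), *Mmp12* (0.343 ± 0.142), *Timp1* (0.309 ± 0.158) and *Mmp7* (0.0388 ± 0.0706). Only *Timp3* against *Timp2* and *Adamts1* against *Mmp14* were neighbours in this order whose mice did not overlap. In mutants *Timp1* stood in the fourth place, at 12.3 ± 9.61, between *Adamts1* (22.9 ± 11.3) and *Mmp14* (6.24 ± 3.02), and its range overlapped with both.

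The make-up of the TIMP transcripts moved accordingly. *Timp1* was 0.0900% ± 0.0454 of the summed *Timp1*, *Timp2* and *Timp3* level per kilobase in male controls and 2.44% ± 1.94 in male mutants, and 0.106% ± 0.0666 in female controls and 5.09% ± 4.36 in female mutants. *Timp3* made up 95.9%, 91.9%, 93.0% and 84.2% of that sum in the same 4 groups. Even in the mouse with the highest *Timp1* share, at 11.1%, *Timp3* remained the main TIMP transcript.

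**Figure D1:**
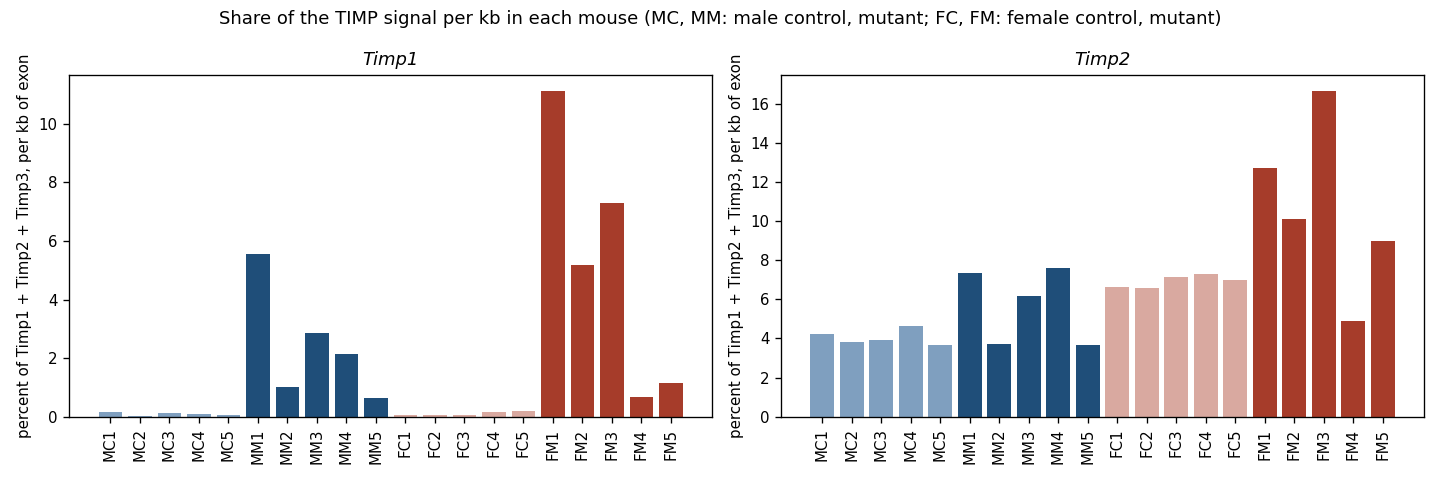
Share of *Timp1* (left) and *Timp2* (right) in the summed level of *Timp1*, *Timp2* and *Timp3* per kilobase of exon, in percent, 1 bar per mouse, coloured by group. The *Timp1* share is below 0.2% in all 10 controls and between 0.655% and 11.1% in the 10 mutants.

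Mutants were then compared with controls over both sexes, with sex and litter as covariates, to ask whether the other 9 genes changed. *Mmp2*, *Mmp12*, *Mmp14*, *Timp2*, *Adamts1* and *Adamts2* rose in mutants, that is, 6 of the 9 genes passed an adjusted p of 0.01 upwards and 0 downwards. Over all 14191 genes tested, 10% were called higher. *Timp3* and *Adam12* did not pass, and *Mmp7* had too few reads to be tested. The median log2 fold change was 1.04 over the 8 genes tested and -0.01 over all genes. Without female mutant 4, *Adam12* was also called, giving 7 of 9 beside 12.5% of all genes. In bulk RNA, more cells of a type and more RNA per cell cannot be told apart, and this holds for every difference between groups given here.

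**Figure D2:**
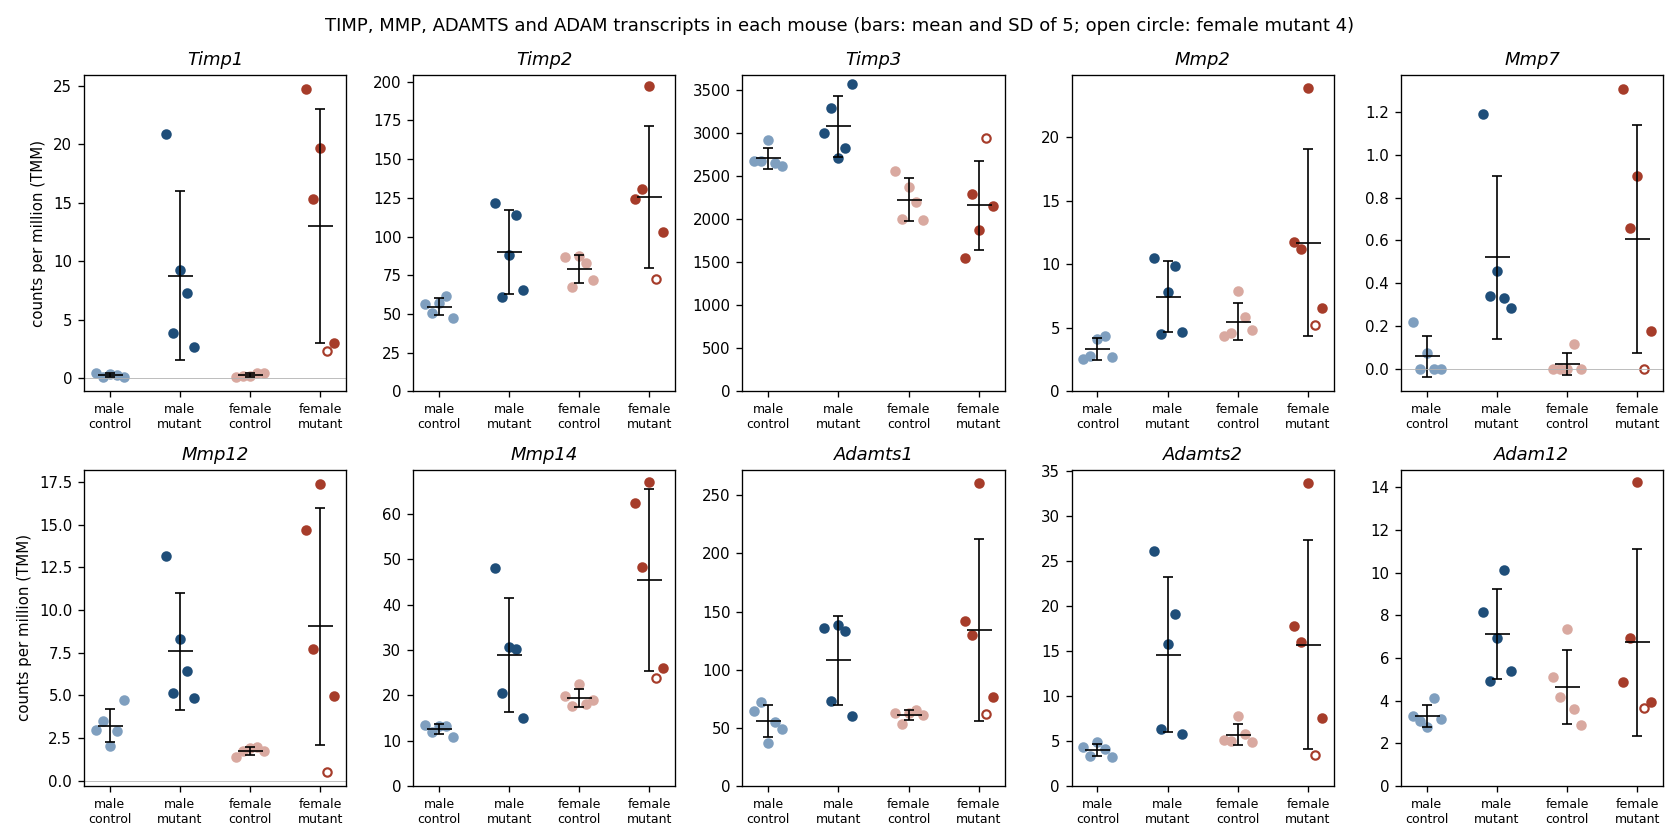
Level of each of the 10 transcripts in CPM (linear axis from 0) in each of 20 mice, by group, with the mean and SD of the 5 mice. The mutant groups spread widely and lie above their controls for *Timp1* in every mouse, while *Timp3* overlaps in both sexes; the open circle is female mutant 4.

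Among the 7 proteases followed, *Mmp14* had the smallest adjusted p of those tested. It encodes the membrane-anchored MT1-MMP, a collagenase that also activates proMMP2. Male controls had 13.6, 11.9, 13.3, 13.3 and 10.9 CPM, and male mutants 48.1, 20.6, 30.7, 30.1 and 15.1 CPM. Female controls had 19.8, 17.6, 22.6, 18.1 and 19.1 CPM, and female mutants 62.3, 48.3, 66.9, 23.7 and 26.1 CPM. Every mutant was above every control of its own sex, although female mutant 4 exceeded the highest female control by a factor of only 1.05. The joint log2 fold change was 1.18 ± 0.18 (SE; edgeR adjusted p = 0.000127). *Mmp2*, the gelatinase A that MMP14 activates, lay at 2.57 to 4.38 CPM in male controls, 4.52 to 10.5 in male mutants, 4.37 to 7.90 in female controls and 5.22 to 23.9 in female mutants. Its male groups were separate but its female groups overlapped, and its joint log2 fold change was 1.09 ± 0.23 (edgeR adjusted p = 0.0018).

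*Mmp12* encodes the macrophage elastase. Male controls had 2.93, 3.51, 2.02, 2.92 and 4.71 CPM, and male mutants 13.1, 5.14, 8.32, 6.40 and 4.83 CPM. Female controls had 1.39, 1.75, 1.89, 1.97 and 1.74 CPM, and female mutants 14.7, 7.73, 17.4, 0.514 and 4.93 CPM. The male groups touched without overlapping, and female mutant 4, with 6 counts, was below every other mouse of the study. The other 4 female mutants were all above the highest female control. The joint log2 fold change was 1.79 ± 0.40 (edgeR adjusted p = 0.00268), and without female mutant 4 it was 1.92 ± 0.30 (adjusted p = 9.13e-05). The call rested on male mutant 1, without which the adjusted p was 0.0112.

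*Mmp7*, or matrilysin, is a small MMP known from injured tubule epithelium. It had 3, 0, 1, 0 and 0 counts in male controls and 21, 5, 7, 5 and 5 counts in male mutants. In female controls it had 0, 0, 0, 2 and 0 counts, and in female mutants 26, 11, 18, 0 and 3 counts. The transcript was thus rare even in mutants, at most 1.31 CPM, but 9 of the 10 mutants had a count, and 8 had more than 3. Scaled to library size, the summed counts gave a mutant to control ratio of 9.44 in males (43 against 4 counts, exact 95% interval 3.43 to 36.2) and 27.3 in females (58 against 2 counts, interval 7.23 to 231). These intervals cover counting error only and not the spread between mice.

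*Adamts2*, the protease that removes the amino-terminal propeptide of procollagen I, had the largest fold change of the ADAMTS and ADAM members. Male controls had 4.40, 3.32, 4.87, 4.14 and 3.29 CPM, and male mutants 26.1, 6.37, 15.7, 19.1 and 5.80 CPM. Female controls had 5.16, 5.02, 7.78, 5.78 and 4.92 CPM, and female mutants 17.8, 16.0, 33.6, 3.51 and 7.57 CPM. Males were fully separated, and in females the mutants numbered 4 and 5 fell within or below the control range. The joint log2 fold change was 1.59 ± 0.32 (edgeR adjusted p = 0.00108). *Adamts1*, a protease of the proteoglycans versican and aggrecan, lay at 37.1 to 72.8 CPM in male controls, 60.5 to 138 in male mutants, 53.6 to 65.3 in female controls and 62.3 to 261 in female mutants. It rose by 0.99 ± 0.21 (edgeR adjusted p = 0.00212), with overlap in both sexes. *Adam12*, a membrane-bound sheddase, had 2.77 to 4.14 CPM in male controls against 4.93 to 10.1 in male mutants, but 2.88 to 7.37 CPM in female controls against 3.68 to 14.2 in female mutants. Only its male groups were separate, and its joint difference of 0.77 ± 0.22 did not pass (edgeR adjusted p = 0.0138). It passed without female control 3 (adjusted p = 0.008), without female mutant 1 (0.00994) and without female mutant 4 (0.00179).

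Of the inhibitors besides *Timp1*, *Timp2* rose and *Timp3* did not pass. *Timp2* had 56.3, 50.8, 57.1, 61.6 and 47.4 CPM in male controls and 121, 61.1, 87.9, 114 and 65.6 CPM in male mutants. It had 87.0, 67.5, 87.3, 82.8 and 72.0 CPM in female controls and 124, 131, 197, 72.7 and 103 CPM in female mutants. In each sex, 4 of 5 mutants were above all controls, the exceptions being male mutant 2 and female mutant 4. The joint log2 fold change was 0.68 ± 0.15 (edgeR adjusted p = 0.00204). *Timp3* lay at 2618 to 2921 CPM in male controls, 2712 to 3578 in male mutants, 1991 to 2565 in female controls and 1553 to 2939 in female mutants, with female mutant 4 the highest of its group. Its joint difference was 0.08 ± 0.10 (edgeR adjusted p = 0.603).

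All of these differences were also taken inside each of the 6 combinations of sex and litter. *Timp2*, *Mmp2*, *Mmp7*, *Mmp12*, *Mmp14*, *Adamts1* and *Adamts2* were higher in mutants in 6 of 6, and *Adam12* and *Timp3* in 5 of 6. Among these 9 genes, the within-litter differences of *Mmp12* were the most uneven, from 0.03 in the males of litter C, where the control had the highest *Mmp12* level of any control, to 3.29 in the females of litter A. Those of *Timp2* were the most even, from 0.47 to 0.70. Each combination holds 1 to 3 mice of a genotype, and these differences were not tested.

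The 2 sexes were compared next, since the study asked how sex modifies the disease. In males, *Mmp14* (1.16 ± 0.22), *Adamts2* (1.77 ± 0.35) and *Adam12* (1.01 ± 0.19) rose in mutants, which is 3 of 9 genes beside 5.25% of all genes tested (edgeR adjusted p of 0.00461, 0.00579 and 0.00466). Of the other genes tested, *Mmp2* just missed (1.09 ± 0.24, adjusted p = 0.0103), and *Timp2*, *Mmp12* and *Adamts1* had adjusted p-values of 0.0137, 0.0207 and 0.0202. All 8 genes tested were higher in male mutants with an unadjusted edgeR p under 0.05, beside 4720 of all 14010 genes in either direction. *Timp3* was among the 8 but was not called, with means of 3082 CPM in male mutants and 2710 in male controls. The count of 3 calls was fragile: it was 0 when male control 1, 2, 3 or 4 was left out (*Mmp14* then had an edgeR adjusted p of 0.0143 to 0.0274), 1 without male mutant 3 or 4, and 7 without male mutant 2. It was also 0 when all 20 mice shared 1 estimate of the spread, with *Mmp14* at an adjusted p of 0.0102.

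Every male mutant was above every male control for 7 of the 10 genes, *Timp1*, *Mmp2*, *Mmp7*, *Mmp12*, *Mmp14*, *Adamts2* and *Adam12*, beside 8.83% of all genes tested in males. In females this held for 2, *Timp1* and *Mmp14*, beside 3.6%, and over both sexes together for *Timp1* alone, beside 0.979%. *Timp1* was chosen for this contrast, so its place in these counts is a description.

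In females, 0 of the 9 genes passed an adjusted p of 0.01 by edgeR's quasi-likelihood test, beside 0.457% of all genes, and 6 had an unadjusted p under 0.05. DESeq2 called 1, *Mmp14*, and the share of all genes that DESeq2 called was not taken. *Mmp14* also came nearest with edgeR, at a log2 fold change of 1.22 ± 0.27 and an adjusted p of 0.0282. *Mmp12* had the widest difference, 2.36 ± 0.65 (adjusted p = 0.0601). Without female mutant 4, 5 of the 9 passed, beside 4.68% of all genes: *Mmp12* (2.69 ± 0.33), *Adamts2* (1.73 ± 0.30), *Mmp14* (1.39 ± 0.21), *Adamts1* (1.32 ± 0.27) and *Timp2* (0.85 ± 0.17), with edgeR adjusted p-values from 0.0014 to 0.0099. The number of genes in which every female mutant was above every female control was then 6 of 10, beside 7.06%. Female mutant 4 was both the library that stood apart and the mutant with the lowest KBW, and the part of each in these counts was not tested.

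**Figure D3:**
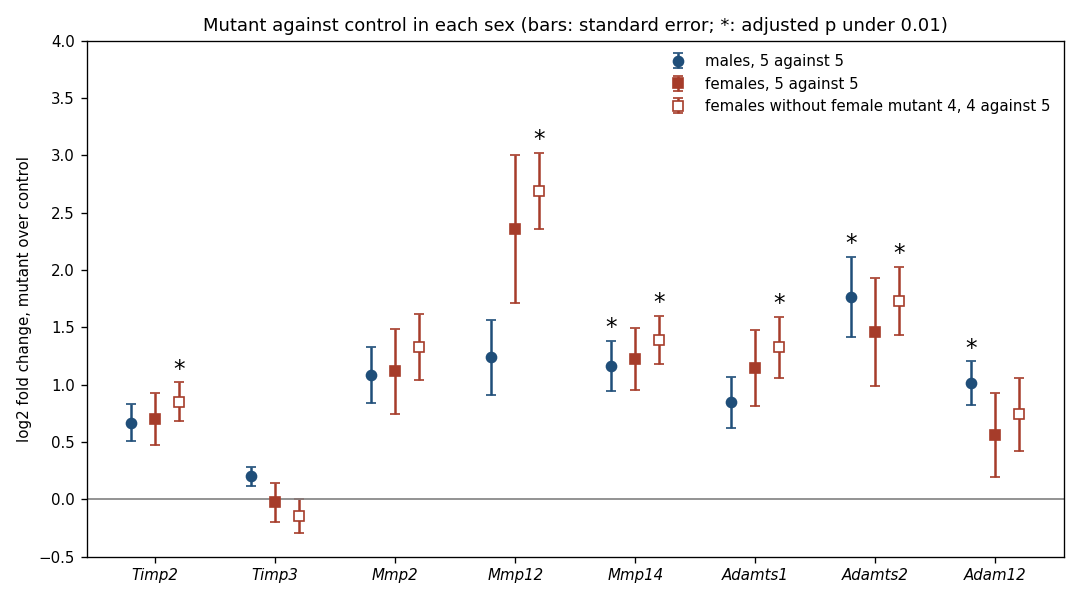
Log2 fold change of mutant over control with its standard error for the 8 tested genes other than *Timp1*, in males, in females and in females without female mutant 4. Stars mark an adjusted p under 0.01; 3 genes are starred in males, 0 in females and 5 in females without that mouse.

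Whether the genotype difference itself differed between the sexes was tested with an interaction term. Of the 8 genes tested besides *Timp1*, 0 passed by edgeR's quasi-likelihood test, beside 0% of all genes. Also, 0 had an unadjusted p under 0.05, and 0 passed with DESeq2. The estimates, male minus female, were -1.08 ± 0.77 for *Mmp12*, 0.25 ± 0.20 for *Timp3* and 0.49 ± 0.43 for *Adam12* on the log2 scale. For *Timp1*, whose mutant and control levels are not tested, the fitted value was -0.43 ± 1.17.

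Among controls, the sexes differed in 3 of the 10 genes, beside 17.8% of all genes tested. *Mmp12* was higher in males by 1.03 ± 0.23 (edgeR adjusted p = 0.00575), and *Timp2* and *Mmp14* were lower in males, by -0.50 ± 0.09 (adjusted p = 0.00184) and -0.60 ± 0.11 (0.00139). Each of these 3 pairs of groups was fully separated: the lowest male control had 2.02 CPM of *Mmp12* and the highest female control 1.97. *Timp3* and *Adamts2* were also separated but did not pass, with *Timp3* higher in males by 0.28 ± 0.09 and the male-minus-female difference of *Adamts2* at -0.43 ± 0.19, which is lower in males (edgeR adjusted p = 0.0274 and 0.109). Leaving out female control 1 ended all 3 calls, with adjusted p-values of 0.0304 for *Mmp12*, 0.0283 for *Timp2* and 0.0121 for *Mmp14*. The *Mmp12* call was also lost without male control 1, 2, 4 or 5 or female control 2 or 5, at adjusted p-values of 0.0101 to 0.0397. *Timp1* and *Mmp7* had too few reads in controls to be tested.

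Among mutants, 0 of the 10 genes differed between the sexes by edgeR's quasi-likelihood test, beside 5.42% of all genes, and 2 had an unadjusted p under 0.05. DESeq2 called 1, *Timp3*, which was higher in males (adjusted p = 0.00855). Here too the share of all genes that DESeq2 called was not taken. By edgeR the *Timp3* difference was 0.55 ± 0.19 (male minus female, log2; adjusted p = 0.083). Without female mutant 4 it was 0.68 ± 0.15 (edgeR adjusted p = 0.0126), and every male mutant was then above every female mutant. *Timp1* was at 8.77 ± 7.25 CPM in male mutants and 13.0 ± 10.0 in female mutants, a difference of -0.65 ± 0.53 (male minus female, log2; edgeR adjusted p = 0.436). Without female mutant 4 this became -0.89 ± 0.40 (adjusted p = 0.129). *Mmp14* was at 28.9 ± 12.6 CPM in males and 45.5 ± 20.0 in females, a difference of -0.72 ± 0.28 (edgeR adjusted p = 0.113), and -0.87 ± 0.22 without female mutant 4 (0.0192). The order of *Mmp12* between the sexes was the opposite of that in controls, with a mean of 7.57 CPM in male and 9.04 CPM in female mutants, but its difference of -0.33 ± 0.59 did not pass (edgeR adjusted p = 0.737).

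Levels were then set against kidney enlargement within the 10 mutants, as a relation that the choice of *Timp1* did not use. KBW and log2 CPM were taken as deviations from the mean of the sex, and all 14400 relabellings of mice within sex were enumerated. Litter was not taken into account, so mice of different litters were exchanged. *Timp1* was higher in mutants with heavier kidneys (r = 0.813, exact permutation p = 0.0091, adjusted over the 10 genes 0.0225; Spearman rho = 0.879, p = 0.00472, adjusted 0.0157). *Mmp12* had r = 0.736 (exact permutation p = 0.000764, adjusted 0.00764; rho = 0.855, p = 0.00243, adjusted 0.0157) and *Mmp7* r = 0.800 (exact p = 0.00243, adjusted 0.0122; rho = 0.818, p = 0.01, adjusted 0.0214). In all, 8 of the 10 genes passed an adjusted p of 0.05 by r, all with positive r. The same 8 had an unadjusted p under 0.05, beside 12.2% of the 14191 genes tested over both sexes, *Mmp7* not among them, with a positive r at that level. *Adam12* did not pass by r (0.585, exact permutation p = 0.0683, adjusted 0.0759) but did by rho (0.709, p = 0.0336, adjusted 0.0373). The r of *Timp3* was negative (-0.547, rho = -0.600; exact permutation p = 0.0903 and 0.0917).

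This relation rested on single mice and on the centring by sex. Without female mutant 4, which had the lowest KBW of the mutants, 0 of the 10 passed and 6 had an unadjusted exact permutation p under 0.05 (8.53% of all genes with a positive r), with adjusted p-values of 0.0556 for *Mmp12* and 0.0683 for *Timp1* (r = 0.757) and up to 0.327 for *Timp3*. The count was 1 without male mutant 1, 2 without female mutant 3 and 4 without male mutant 2. Leaving out male mutants 1 and 2, the mice farthest from the median in the x measure, gave r = 0.841 for *Timp1* (exact permutation p = 0.0472), 0.891 for *Mmp12* (0.00694) and 0.928 for *Mmp7* (0.00833), while *Timp2*, *Mmp2*, *Mmp14*, *Adamts1* and *Adamts2* had p-values of 0.0542 to 0.108. Without centring by sex, 3 of the 10 passed, and the r of *Timp1* was 0.490 (adjusted p = 0.136). A sex holds 5 mutants and a litter at most 5, too few for a correlation within either.

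**Figure D4:**
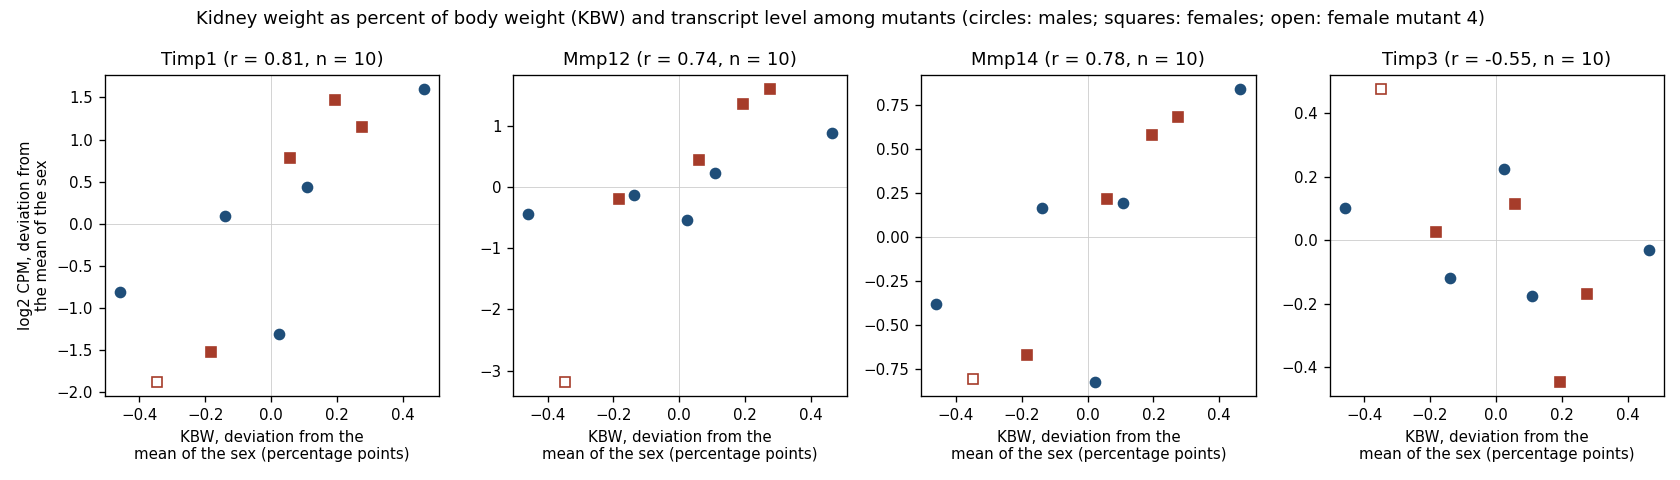
KBW (x axis, percentage points from the mean of the sex) against log2 CPM (y axis, difference from the mean of the sex) of *Timp1*, *Mmp12*, *Mmp14* and *Timp3* in the 10 mutants, 1 point per mouse. Points rise from left to right for the first 3 genes (r of 0.81, 0.74 and 0.78) and fall for *Timp3* (r = -0.55), and female mutant 4 is the lowest point for *Timp1* and *Mmp12* and the highest for *Timp3*.

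Within the mutants, *Timp1* also moved with other genes of the set, a relation examined after the values had been seen. With both levels centred by sex, r with *Timp1* was 0.982 for *Mmp14* (rho = 0.952; exact permutation p = 0.000208 and 0.000417, adjusted over the 9 genes 0.000625 and 0.00125), 0.936 for *Mmp7*, 0.921 for *Adamts2*, 0.875 for *Adamts1*, 0.863 for *Mmp2*, 0.836 for *Mmp12* and 0.828 for *Timp2*. It was -0.749 for *Timp3* and 0.668 for *Adam12*. By r, *Timp3* passed an adjusted p of 0.05 (exact permutation, adjusted 0.0291) and *Adam12* did not (0.0587), whereas by rho *Timp3* did not (-0.661, adjusted 0.0747) and *Adam12* did (0.745, adjusted 0.0392). Positive relations with *Timp1* at an unadjusted p under 0.05 were found for 7 of the 9 genes. The share was 14.8% over 14190 genes tested over both sexes, which do not include *Mmp7*, and 6 of the 8 set genes among those. Leaving out female mutant 4 left the same 7 positive relations at an unadjusted p under 0.05, with r = 0.978 for *Mmp14*. The negative relation of *Timp3* did not pass without that mouse (r = -0.616, exact permutation p = 0.12, adjusted 0.135). By adjusted p (exact permutation), 6 of the 9 were then under 0.05, and *Timp2* was at 0.05. Without female mutants 4 and 5, the farthest from the median of *Timp1*, r was still 0.976 for *Mmp14* (exact permutation p = 0.00417), but 0.700 for *Mmp2* (p = 0.0681) and 0.724 for *Timp2* (p = 0.0806).

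To place this among all genes, 13757 genes with a mean of at least 1 CPM were ordered by their correlation with *Timp1* over the 10 mutants in log2 CPM, not centred. This is a description, and the libraries share their normalization. The genes most like *Timp1* were *Rgs16*, a regulator of G protein signalling (r = 0.994), *Tsc22d1*, a leucine zipper protein induced by TGF-beta (0.993), *Serpina10*, the protein Z-dependent protease inhibitor (0.990), *Fgr*, a Src family kinase of myeloid cells (0.989), and *Socs3*, a feedback inhibitor of cytokine signalling (0.986). *Serpina10*, for example, averaged 22.5 CPM in male mutants and 1.02 CPM in male controls, and *Socs3* 16.5 and 2.69 CPM. Of the metalloproteinase genes, *Mmp14* ranked 176 (r = 0.927), *Adamts2* 268 (0.908) and *Adamts1* 416 (0.878). *Mmp12* ranked 795 (0.803), and *Timp3* ranked 12210, near the end of the order. The order of these genes rested in part on female mutant 4. Without it, *Mmp14* ranked 150 (r = 0.945), *Mmp12* 229 (0.929), *Adamts2* 433 (0.890), *Adamts1* 701 (0.849) and *Timp3* 11776 (-0.591).

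Related genes were examined through lists of MMPs, of TIMPs and other metalloproteinase inhibitors, of ADAMTS and ADAMTS-like genes and of selected ADAM genes. Beyond the 10 genes above, the lists held 57, of which 39 could be tested over both sexes. Of these, 10 rose and 0 fell, beside the 10% of all genes called higher, and their median log2 fold change was 0.21 beside -0.01 over all genes. Without female mutant 4, 11 rose (12.5% of all genes) and 1 fell, *Adam22* (-0.41 ± 0.10, edgeR adjusted p = 0.00371), named after its value had been seen. In males 4 were called higher (5.25% of all genes), in females 1 (0.457%), and in females without female mutant 4, 5 (4.68%).

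Among the 23 MMPs, 12 were tested and 5 rose, beside 10% of all genes tested. This count includes *Mmp2*, *Mmp12* and *Mmp14*, which were given above. *Mmp3*, or stromelysin 1, had the largest fitted fold change of the listed genes tested besides *Timp1*: 0.378 ± 0.177 CPM in male controls, 2.88 ± 2.14 in male mutants, 0.248 ± 0.223 in female controls and 5.15 ± 3.16 in female mutants, with every mutant above every control (log2 fold change 3.62 ± 0.42, edgeR adjusted p = 1.07e-05). *Mmp19* rose by 1.57 ± 0.29 (adjusted p = 0.000575). *Mmp9*, gelatinase B, had a log2 fold change of 0.94 ± 0.41 and did not pass (edgeR adjusted p = 0.101). It falls outside the rule for naming genes and is given because it is the other gelatinase beside MMP2. Besides *Timp1*, 6 inhibitors were listed and 5 were tested, of which *Timp2* was the only one called.

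Of 19 ADAMTS genes, 14 were tested and 4 rose, beside 10% of all genes, with *Adamts1* and *Adamts2*, given above, among the 4. The largest rise was that of the aggrecanase *Adamts4* (1.70 ± 0.30, edgeR adjusted p = 0.000427). *Adamtsl4*, a matrix protein without protease activity that is associated with fibrillin, rose by 1.02 ± 0.22 (adjusted p = 0.0023) and was the only one called of 6 ADAMTS-like genes. Of 12 ADAM genes, 10 were tested and 5 rose, beside the same 10% of all genes. *Adam8*, a sheddase of leukocytes, was at 0.618 ± 0.254 CPM in male controls, 3.50 ± 1.87 in male mutants, 0.941 ± 0.225 in female controls and 6.31 ± 5.85 in female mutants (2.64 ± 0.39, adjusted p = 8.69e-05). *Adam19* (0.97 ± 0.23) and *Adam11* (0.54 ± 0.11) also rose. The call of *Adam19* was lost without male mutant 1 (edgeR adjusted p = 0.0187) or male control 4 (0.012).

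Genes that act before MMPs include the plasminogen system, in which plasmin can activate proMMPs. Of 11 listed, 10 were tested, 3 rose and 1 fell, beside 10% of all 14191 genes tested called higher and 831 called lower. *Plaur*, the urokinase receptor, rose by 0.90 ± 0.16, and *Serpine2*, the inhibitor protease nexin 1, by 0.66 ± 0.16. The gene that fell, *Serpinf2*, encodes the plasmin inhibitor alpha-2-antiplasmin and was named after its value had been seen (-0.61 ± 0.13, adjusted p = 0.00153). The call of *Serpine2* was lost without male mutant 1 (adjusted p = 0.0193), female mutant 1, female control 1 or male control 4 (0.0118 to 0.0128). Among 6 tested genes of the astacin proteases and procollagen processing, *Bmp1*, the procollagen C-proteinase, rose by 0.61 ± 0.14 and *Mep1b*, the brush-border protease meprin beta, changed by -0.69 ± 0.10 (edgeR adjusted p = 0.00337 and 0.000112). The *Bmp1* call was lost without male mutant 1 (0.0129) or male control 4 (0.0111).

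Of 18 substrates of these enzymes, 16 were tested, 12 rose and 0 fell, beside the 10% of all genes called higher, with a median log2 fold change of 0.80 beside -0.01. *Col3a1* was at 47.2 ± 10.5 CPM in male controls, 243 ± 121 in male mutants, 62.0 ± 20.7 in female controls and 274 ± 165 in female mutants, with every mutant above every control (2.20 ± 0.24, edgeR adjusted p = 6.41e-06). *Col1a1*, the procollagen that ADAMTS2 and BMP1 process, rose by 2.05 ± 0.26, and *Spp1*, osteopontin, by 1.77 ± 0.27. In males 10 of the 16 were called (5.25% of all genes), in females 0 (0.457%) by edgeR's quasi-likelihood test, where 12 had an unadjusted p under 0.05, and in females without female mutant 4, 8 (4.68%).

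**Figure D5:**
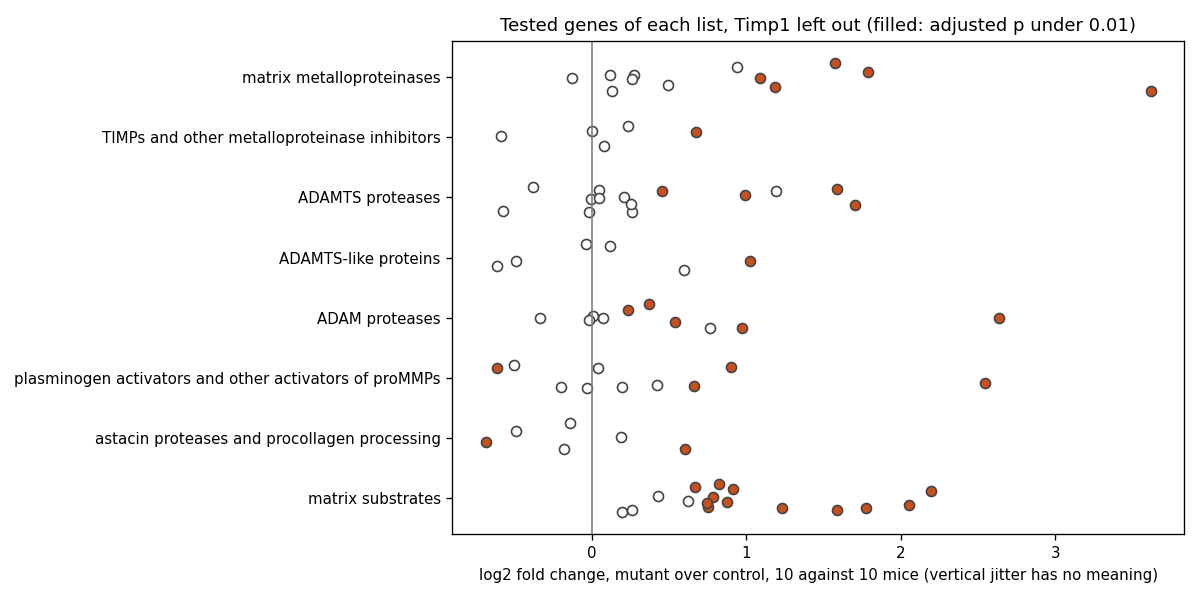
Log2 fold change of mutant over control over both sexes (x axis) for the tested genes of the 8 lists, 1 point per gene, *Timp1* left out, with filled points at an adjusted p under 0.01. Filled points lie to the right of 0 in every list, and only 2 lie to the left, in the lists of MMP activators and astacin proteases.

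Markers of cell types were also compared between mutants and controls, and their relation to the genes above from mouse to mouse was not tested. Beside 10% of all genes tested, 9 of 10 macrophage markers were called higher in mutants over both sexes. Their summed level was 128 to 158 CPM in male controls, 231 to 671 in male mutants, 159 to 202 in female controls and 180 to 908 in female mutants, with female mutant 4 at 180, inside the range of the female controls. Of 8 fibroblast markers, 4 were called higher, beside the same 10% of all genes, *Dcn* and *Col1a1* being shared with the list of substrates. Their sum was 150 to 193 CPM in male controls, 223 to 476 in male mutants, 212 to 317 in female controls and 259 to 655 in female mutants, with female mutant 4 again the lowest mutant of its sex. Of 5 markers of myofibroblasts and mural cells, 2 were called higher, beside that 10%, and 1 lower, beside 831 of all 14191 genes tested. The sums of these 5 were 91.6 to 113, 102 to 271, 113 to 157 and 121 to 343 CPM in the same 4 groups. No macrophage, fibroblast or myofibroblast marker was at 0 in every mouse. Neutrophil markers summed to at most 8.99 CPM and lymphocyte markers to at most 22.2 CPM in any mouse. Of the 5 markers of the thick ascending limb and distal convoluted tubule, 4 were called lower, beside the same 831 of 14191 genes. The part of these cell types in the differences of *Mmp12*, *Timp1* and the other genes was not tested.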

How the data were processed

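Raw counts per gene symbol, whole numbers without normalization, were deposited by the authors for 20 kidney libraries. Per the labels and the study's methods, read trimming used fastp 0.23.2, and STAR 2.7.10b placed the reads on mm10. The counting tool, gene annotation and strandedness are not given in the sources used here. Library totals of 11307741 to 19324073 counts set the precision: genes with few reads, such as *Mmp7*, are given as counts.

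The tests used edgeR 4.0.16 under R 4.3.3 (TMM, filterByExpr, quasi-likelihood test, Benjamini-Hochberg adjustment over all genes tested, calls at an adjusted p under 0.01). Litter, taken from the labels, was a covariate in each comparison, and sex and litter groups in those over both sexes. Litters were unevenly spread, and numbers of mice do not pair them. Log2 CPM used a prior count of 2. Correlations were tested by exact enumeration of relabellings within sex, with litter left out. Tests were two-sided, and the edgeR scripts were checked on simulated data. DESeq2 1.42.0, other filters and scalings, and leaving out each mouse were tried. Exon lengths came from GENCODE (GRCm38).

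The genes and lists were chosen with earlier results of these data known. Genes named were the 10 members, *Pkd2*, up to 3 called genes per list with the largest fold changes and a mean of at least 1 CPM, and the 5 genes most correlated with *Timp1* among mutants. Any other gene is named as an exception or as a marker. A gene that this rule names is not reported here.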

Additional observations from a re-analysis of the deposited data

Results flagged for a closer look

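In 40 groups of 5 mice, 3 had an end value far from the rest by Dixon's test at 95%, where chance gives about 1 in 20, that is 2. *Timp3* in male control 3 was 2921 CPM, with the nearest male control at 2680 CPM. *Mmp7* in male mutant 1 was 1.19 CPM against 0.459 CPM in the nearest male mutant, and this mouse also had the heaviest kidneys. *Mmp7* in female control 4 was 0.119 CPM, which is 2 counts, with the other 4 female controls at 0.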

How the results depend on the processing

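Over both sexes, 5 to 7 of the 9 genes were called higher under every alternative, and the sex-by-genotype term called 0 in every one. The 3 calls in males became 6 with DESeq2, 7 without a filter on low counts, 0 with all 20 mice in 1 fit, and 0 to 7 as each mouse was left out. The 0 calls in females became 1 with DESeq2, 1 with all 20 mice in 1 fit, and 0 to 5 with a mouse left out, the 5 being without female mutant 4. The 3 calls between sexes in controls became 0 with all 20 mice in 1 fit, and 0 to 3 with a mouse left out, and the 0 calls in mutants became 1 with DESeq2. For kidney weight, 8 relations became 3 without centring by sex and 0 to 9 with a mouse left out. The causes were not tested. The share of all genes called was taken for the main fits and for those without female mutant 4, and not for the other alternatives. Whether an alternative called more or fewer genes in general is therefore not shown. Without the litter term, which is the replicate block of these fits, the counts were 6 over both sexes, 4 in males (*Mmp2* gained), 0 in females, 0 for the interaction, 4 in controls (*Timp3* gained) and 0 in mutants, and no other call changed. No called value reversed. Under a minimum of 10 counts in every library, 5 of the other family genes were called instead of 10. That filter takes genes with fewer counts in any library out of the test. *Mmp3*, at 0 CPM in a female control, was among those taken out. Depth limits *Timp1* in controls and *Mmp7* throughout.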
